A study of Mus musculus with 6 samples.

Results

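The 10 genes described here encode the lower steps of glycolysis and the switch at its end, from aldolase A (Aldoa) to lactate dehydrogenase (Ldha, Ldhb) and pyruvate dehydrogenase kinase 1 (Pdk1). They were chosen by symbol with earlier results of these data known, and all 10 are among the 24421 genes of the count table. The cells were 4T1-tetL1(GLucAI), a mouse breast carcinoma population labelled strain BALB/cfC3H. Both groups carried the same integrated cassette, in which a bidirectional doxycycline-responsive promoter (PTRE3G-BI) drives a recoded mouse LINE-1 and a firefly luciferase and an EF1α promoter drives the Tet-On 3G activator. The population was selected for stable integration and is not described as a single clone. The untreated group held 3 cultures (tagged as vehicle in a separate label), and the doxycycline group held 3 cultures exposed to 400 ng/mL for 48 h. No doxycycline-treated cells without the cassette were analysed here, so the drug and the induced LINE-1 cannot be told apart. The transcript of the cassette was not analysed here, and every direction rests on the group labels.

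Lower glycolysis turns the triose phosphates made from glucose into pyruvate and yields ATP and NADH. Lactate dehydrogenase then reduces pyruvate to lactate and restores NAD, while the pyruvate dehydrogenase complex feeds pyruvate into the mitochondrial citrate cycle. Pyruvate dehydrogenase kinases phosphorylate that complex and so close this gate. Many tumor cells run glycolysis at a high rate in the presence of oxygen, and several of these genes are textbook targets of the hypoxia-inducible factor HIF-1.

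Library totals ran from 31653464 to 43631312 counts, and the ribosomal precursor Rn45s took 8.83 to 11.04% of counts in untreated and 9.6 to 12.11% in doxycycline libraries. The epithelial keratins Krt8 and Krt18 and the cadherin Cdh1 ran from 301 to 669 CPM (counts scaled to library size by TMM) over the 6 libraries. Of 8 markers of leukocytes, endothelium and fibroblasts, 6 stayed at or below 0.601 CPM. Cd68 ran from 8.54 to 11.1 CPM, and Pdgfra fell from 36.7 ± 1.37 to 27.8 ± 0.669 CPM (SD, n = 3 each; adjusted p in edgeR 0.000952). The summed level of these 8 markers ran from 47.2 to 47.7 CPM in untreated and from 37.1 to 39.6 CPM in doxycycline libraries, and its part in the results on the 10 genes was not tested. In bulk samples, fewer cells that express a gene and less RNA per cell cannot be told apart. Of 6 epithelial markers, Krt19 alone fell (log2 fold change -0.31, adjusted p in edgeR 0.00783). The other 5 were above 0 without a call, and the median log2 fold change of the 6 was 0.017.

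Because 6 of the 10 genes moved together, the 250 bases upstream of their RefSeq start sites were read from the GRCm38.p6 promoter table, in which all 10 symbols matched, with 17 start windows. The letters ACGTG, which form part of the hypoxia response element, were searched on both strands, where they appear as ACGTG or CACGT. They were found in 6 of the 17 windows, which belong to 5 genes (Aldoa, Pgk1, Pgam1, Pkm and Ldha). The 2 Aldoa windows overlap and hold the same stretch. These letters stood in 16.6% of all 32851 windows, and 18.5% of the genes in that set held them in at least 1 window. The 32851 windows belong to 27025 genes, so the 10 genes with 17 windows have more windows per gene, and shares per gene are not like for like. Of the 6 genes that fell, 4 held them and 2 (Tpi1 and Pdk1) did not, and of the 4 that did not pass, 1 (Pkm) held them. A match describes letters and is not evidence of binding. The windows below show each of these cases, with Ldha, Pgk1 and Pgam1 for genes that fell and hold the letters, Pdk1 for a gene that fell and does not, Pkm for a gene that did not pass and holds them, and Gapdh for a gene that did not pass and does not. Capitals mark the letters ACGTG or CACGT only. The related letters GCGTG, described after the windows, are left in small letters. Over both strands they occur 1 time in the Pdk1 window shown and 2 times each in the Gapdh and Pgam1 windows. They are absent from the Ldha, Pgk1 and Pkm windows shown. A window without capitals is therefore not shown to lack a hypoxia response element.

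Ldha, chr7:46845554-46845803, plus strand: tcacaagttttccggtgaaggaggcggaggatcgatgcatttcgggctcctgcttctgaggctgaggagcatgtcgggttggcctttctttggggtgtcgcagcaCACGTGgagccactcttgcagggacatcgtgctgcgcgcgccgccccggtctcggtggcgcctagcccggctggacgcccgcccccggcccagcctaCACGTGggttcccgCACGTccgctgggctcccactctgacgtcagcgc

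Pgk1, chrX:106186850-106187099, plus strand: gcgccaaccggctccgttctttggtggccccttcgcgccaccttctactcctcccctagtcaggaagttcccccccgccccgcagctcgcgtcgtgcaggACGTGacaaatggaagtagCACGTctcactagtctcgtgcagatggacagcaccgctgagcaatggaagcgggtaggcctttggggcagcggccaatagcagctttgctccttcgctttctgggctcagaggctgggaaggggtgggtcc

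Pgam1, chr19:41911621-41911870, plus strand: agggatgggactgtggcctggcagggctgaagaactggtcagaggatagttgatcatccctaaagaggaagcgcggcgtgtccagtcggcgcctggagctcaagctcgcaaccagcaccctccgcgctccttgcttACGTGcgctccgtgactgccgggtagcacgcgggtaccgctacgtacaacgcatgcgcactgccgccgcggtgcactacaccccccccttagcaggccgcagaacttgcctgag

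Pdk1, chr2:71872974-71873223, plus strand: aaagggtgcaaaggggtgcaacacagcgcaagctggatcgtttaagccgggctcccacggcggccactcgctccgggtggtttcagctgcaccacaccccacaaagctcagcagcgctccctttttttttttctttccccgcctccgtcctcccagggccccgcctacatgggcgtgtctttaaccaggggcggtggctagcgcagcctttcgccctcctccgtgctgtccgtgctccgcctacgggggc

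Pkm (second window), chr9:59656977-59657226, plus strand: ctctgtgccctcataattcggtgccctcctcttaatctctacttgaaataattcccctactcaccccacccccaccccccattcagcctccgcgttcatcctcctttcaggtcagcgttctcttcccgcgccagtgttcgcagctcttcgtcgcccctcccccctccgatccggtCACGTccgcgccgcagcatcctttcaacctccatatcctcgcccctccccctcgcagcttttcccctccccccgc

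Gapdh, chr6:125165774-125166023, minus strand: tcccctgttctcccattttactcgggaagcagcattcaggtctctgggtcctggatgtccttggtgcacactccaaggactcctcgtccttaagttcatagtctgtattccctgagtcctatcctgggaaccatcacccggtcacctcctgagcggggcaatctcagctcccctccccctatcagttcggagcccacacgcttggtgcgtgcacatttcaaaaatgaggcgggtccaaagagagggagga

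The Ldha window holds 3 separate stretches, of which 2 are the palindrome CACGTG, which carries the letters on each strand and is also the core of the E-box. The Pgk1 window holds 2 stretches, and the Pgam1 and Pkm windows hold 1 each. The related letters GCGTG, searched the same way, are more common and stand in 28.2% of all windows. They occur in 8 of the 17 windows, which belong to 6 genes (Pdk1, Eno1, Gapdh, Ldhb, Ldha and Pgam1), against 30.9% of all genes in the set. Of these genes Pdk1, Ldha and Pgam1 fell, while Eno1, Gapdh and Ldhb did not pass. The split of ACGTG between genes that fell and genes that did not pass was therefore not seen for GCGTG.

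In the doxycycline libraries 6 of the 10 genes fell and 0 rose by the quasi-likelihood test of edgeR, with Benjamini-Hochberg adjustment over 13084 genes and a threshold of 0.05. Over all genes tested 2.16% were called lower and 0.925% higher (283 and 121 genes, against 445 and 436 after a correction for GC content and length). The genes that fell were Aldoa, Tpi1, Pgk1, Pgam1, Ldha and Pdk1, by 11.8 to 24.9%, so that every change was modest. Gapdh, Pkm, Ldhb and Eno1 did not pass. The median log2 fold change of the 10 genes was -0.20, against 0.002 over all genes tested. Since the 10 genes were chosen with earlier results known, comparisons with all genes are a description. In 7 of the 10 genes the 3 doxycycline libraries all lay below the 3 untreated ones, where 11.1% of all genes tested did, and in 0 they all lay above, where 10.1% did. Together the 10 genes took 6304 ± 79.9 CPM in untreated and 5686 ± 210 CPM in doxycycline libraries, a sum 9.81% lower.

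**Figure D1:**
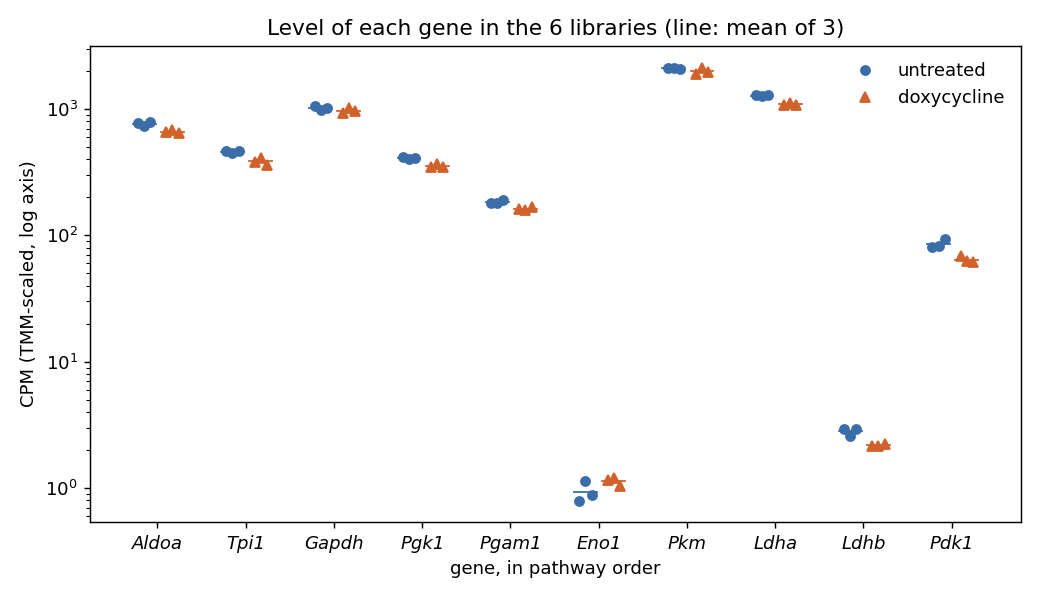
Level of the 10 genes in each of the 6 libraries, in CPM on a log axis, with genes in pathway order, circles for untreated and triangles for doxycycline libraries and a line at each mean of 3. Pkm stands highest near 2108 CPM, Ldhb and Eno1 lie below 3 CPM, and the triangles sit below the circles for Aldoa, Tpi1, Pgk1, Pgam1, Ldha, Ldhb and Pdk1.

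Aldolase A, encoded by Aldoa (chromosome 7, 126795234 to 126800994, minus strand, protein-coding), splits fructose bisphosphate into triose phosphates. Its level was 775, 729 and 783 CPM in untreated replicates 1 to 3 and 659, 679.9 and 643 CPM in doxycycline replicates 1 to 3. The groups did not overlap, and the log2 fold change was -0.21 (SE 0.04, adjusted p in edgeR 0.0106). Triose phosphate isomerase, encoded by Tpi1 (chromosome 6, 124810586 to 124814158, minus strand, protein-coding), interconverts those triose phosphates. It stood at 467, 450.0 and 464 CPM in untreated and at 381, 413 and 363 CPM in doxycycline libraries. All doxycycline libraries were below all untreated ones, with replicate 2 the highest of the 3 (log2 fold change -0.26, SE 0.05, adjusted p in edgeR 0.00353).

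Gapdh (chromosome 6, 125161852 to 125166467, minus strand, protein-coding) encodes glyceraldehyde phosphate dehydrogenase, the NADH-forming step, and is a common reference gene in RT-PCR. It had 1059, 983 and 1014 CPM in untreated and 926, 1012 and 968 CPM in doxycycline libraries. The groups overlapped, since doxycycline replicate 2 lay above untreated replicate 2, and the log2 fold change was -0.07 (SE 0.05, adjusted p in edgeR 0.463). Counts of Gapdh need care, since 82.5% of the 50-base windows of its longest coding transcript also occur in transcripts of other genes in the GENCODE vM21 set. How reads shared between such copies were counted is not given in the sources used here.

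Phosphoglycerate kinase 1, encoded by Pgk1 (chromosome X, 106187100 to 106203699, plus strand, protein-coding), makes the first ATP of the pathway. It fell from 415, 400.0 and 411 CPM in untreated replicates 1 to 3 to 351, 369 and 349 CPM in doxycycline replicates 1 to 3. The groups lay apart, with a log2 fold change of -0.20 (SE 0.04, adjusted p in edgeR 0.0115). Phosphoglycerate mutase 1, encoded by Pgam1 (chromosome 19, 41911871 to 41918665, plus strand, protein-coding), prepares the substrate of enolase. Its level was 179.8, 181 and 192 CPM in untreated and 163, 158 and 167 CPM in doxycycline libraries. The groups did not overlap, and the log2 fold change was the smallest of the 6 calls at -0.18 (SE 0.05, adjusted p in edgeR 0.0335). In the same GENCODE comparison 68% of the Pgk1 windows and 41.5% of the Pgam1 windows occur in other genes.

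Enolase 1 makes phosphoenolpyruvate. Its gene Eno1 (chromosome 4, 150236708 to 150248879, plus strand, protein-coding) had only 35, 38 and 33 counts in untreated and 37, 49 and 40 counts in doxycycline libraries. Its near-identical copy Eno1b had 6060, 5194 and 5219 counts in untreated and 3878, 5749 and 5049 counts in doxycycline libraries. Of the 50-base windows of the Eno1 transcript, 70.5% also occur in the Eno1b transcript, so neither entry can be read as the level of that gene alone. Neither passed the test, with log2 fold changes of 0.28 (SE 0.30, adjusted p in edgeR 0.699) for Eno1 and -0.13 (SE 0.06, adjusted p in edgeR 0.244) for Eno1b.

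Pyruvate kinase M, encoded by Pkm (chromosome 9, 59656576 to 59679372, plus strand, protein-coding), forms pyruvate and the last ATP of the pathway. The counts per gene do not separate its M1 and M2 splice forms. Pkm had 2109, 2129 and 2085 CPM in untreated and 1911, 2124 and 1959 CPM in doxycycline libraries. Doxycycline replicate 2 lay within the untreated range and the other two below it, and the gene did not pass the test (log2 fold change -0.08, SE 0.05, adjusted p in edgeR 0.418). Without doxycycline replicate 2 the log2 fold change was -0.12 and passed (adjusted p in edgeR 0.0202).

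Ldha (chromosome 7, 46842274 to 46855627, plus strand, protein-coding) encodes the A subunit of lactate dehydrogenase, the form that prevails in glycolytic tissue. It had 1281, 1257 and 1281 CPM in untreated replicates 1 to 3 and 1080.4, 1107 and 1075 CPM in doxycycline replicates 1 to 3. Replicates were tight and the groups lay well apart, with a log2 fold change of -0.23 (SE 0.04, adjusted p in edgeR 0.00217). Ldhb (chromosome 6, 142490249 to 142507957, minus strand, protein-coding) encodes the B subunit, typical of oxidative tissue such as heart. It was scarce, with 129, 86 and 110 counts in untreated and 68, 88 and 86 counts in doxycycline libraries. After scaling these were 2.94, 2.58 and 2.94 CPM against 2.14, 2.16 and 2.25 CPM, without overlap, yet the gene did not pass the test (log2 fold change -0.37, SE 0.19, adjusted p in edgeR 0.341). Per kb of exon, Ldha made up 99.68 ± 0.0203% of the lactate dehydrogenase counts in untreated and 99.71 ± 0.0108% in doxycycline libraries (SD, n = 3 each; exact permutation test, two-sided, p = 0.2, smallest possible 0.1).

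Pdk1 (chromosome 2, 71873215 to 71903858, plus strand, protein-coding) encodes a kinase that switches off the pyruvate dehydrogenase complex, and no window of its transcript occurs in another gene. It fell from 81.1, 82.5 and 93.1 CPM in untreated replicates 1 to 3 to 68.7, 62.3 and 61.9 CPM in doxycycline replicates 1 to 3. Its log2 fold change of -0.41 (SE 0.06, adjusted p in edgeR 0.000342) was the largest of the 6 calls. Its isozyme Pdk3 had 59.1, 55.0 and 63.1 CPM in untreated and 57.2, 61.2 and 60.9 CPM in doxycycline libraries, with overlapping groups (log2 fold change 0.02, SE 0.06, adjusted p in edgeR 0.923). Pdk2 had at most 1.21 CPM and Pdk4 at most 0.0522 CPM. As a share of the 4 kinases per kb of exon, Pdk1 took 35.4, 37.7 and 37.2% in untreated and 32.6, 29.0 and 29.1% in doxycycline libraries. This share, which needs no scaling between libraries, was lower in all 3 doxycycline libraries (mean difference -6.52 percentage points), and the exact permutation test gave p = 0.1, the smallest that 3 against 3 allows (two-sided).

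**Figure D2:**
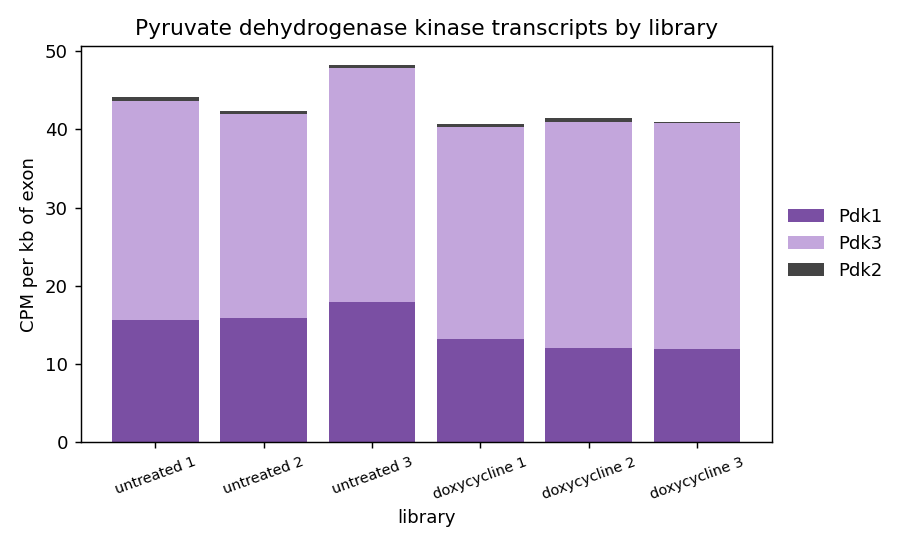
Level of the pyruvate dehydrogenase kinase transcripts per kb of exon in each library, as stacked bars in CPM per kb from 0, with Pdk1 at the base, Pdk3 above it and Pdk2 as the thin cap; Pdk4 is too scarce to draw. The Pdk1 segment is shorter in the doxycycline libraries (mean 12.4 CPM per kb) than in the untreated ones (mean 16.5 CPM per kb).

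Per kb of exon the order of levels in untreated libraries was Pkm (811 ± 8.45 CPM per kb), Gapdh (681 ± 25.4), Ldha (672 ± 7.2), Aldoa (297 ± 11.5), Tpi1 (261 ± 5.06), Pgk1 (224 ± 4.21), Pgam1 (104 ± 3.94), Pdk1 (16.5 ± 1.27), Ldhb (2.16 ± 0.159) and Eno1 (0.369 ± 0.07). Gapdh and Ldha were the only neighbours in this order whose ranges overlapped. In doxycycline libraries the order was the same, and Ldha (574 ± 8.94 CPM per kb) lay apart from Gapdh (648 ± 28.9 CPM per kb). These lengths are unions of all GENCODE exons, so a level per kb depends on the splice forms that are used, and levels also depend on how reads shared with copies were assigned. For Aldoa the length of 2565 bases joins separate GENCODE entries of that name (chromosome 7, 126795234 to 126800751 and 126800790 to 126809108). Its longest coding transcript has 1549 bases, so its level per kb may be understated. Beside the genes already given, windows shared with other genes made up 34.4% for Pkm, 27% for Ldhb, 16.6% for Ldha, 13.5% for Aldoa and 7.5% for Tpi1.

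**Figure D3:**
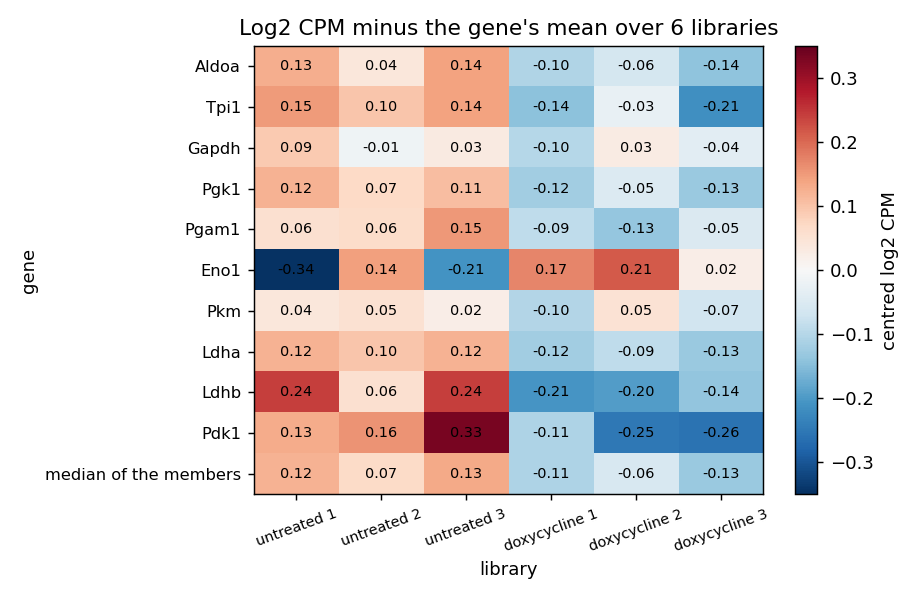
Log2 CPM of each gene minus its mean over the 6 libraries, as colored cells with the value printed, genes in rows and libraries in columns; the last row is the median of the 10 genes. Median values are 0.12, 0.07 and 0.13 in untreated and -0.11, -0.06 and -0.13 in doxycycline libraries, and Eno1 runs against the others.

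The median of the centred log2 levels was lowest in doxycycline replicates 1 and 3 (-0.11 and -0.13) and nearer to 0 in doxycycline replicate 2 (-0.06). Doxycycline replicate 2 was the highest of its group for Aldoa, Tpi1, Gapdh, Pgk1, Eno1, Pkm and Ldha, and the lowest of its group for Pgam1. Among 8774 other genes with a mean of at least 10 CPM, the profiles nearest to this median were those of Fam53c, Gpa33, Sqstm1, Tmem18 and Nrip1, with root-mean-square differences of 0.0226 to 0.0262 log2 units over the 6 libraries. Choosing genes by this profile also fixes a negative fold change, so their log2 fold changes, from -0.21 (Tmem18) to -0.17 (Fam53c), are a description. Sqstm1 encodes an autophagy receptor.

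Several of these genes serve as references for other measurements, so they were also expressed against single genes within each library. Relative to Gapdh, the counts of 6 of the 9 other genes were lower in every doxycycline library than in every untreated one, where 4.53% of all genes tested were. The log2 ratio to Gapdh was 0.28, 0.36 and 0.34 for Ldha in untreated and 0.22, 0.13 and 0.15 in doxycycline libraries. For Pkm that log2 ratio was 0.99, 1.12 and 1.04 against 1.04, 1.07 and 1.02, with overlap. Relative to beta-actin (Actb), 4 of 10 genes (Pgam1, Ldha, Ldhb and Pdk1) were lower in every doxycycline library than in every untreated one. Of all genes tested, 3.84% were. Actb itself was lower in every doxycycline library than in every untreated one, with means of 5797 against 6217 CPM. It did not pass the test (log2 fold change -0.10, adjusted p in edgeR 0.221), and Ywhaz was at -0.001 with overlapping groups. Relative to Ywhaz, 7 of 10 genes were lower in every doxycycline library than in every untreated one (10.2% of all genes tested). Gapdh overlapped between groups against both. Its mean log2 ratio to Actb differed by 0.03 and that to Ywhaz by -0.07 between doxycycline and untreated libraries. The direction of Gapdh therefore depended on the reference, while the mean ratios of Aldoa, Tpi1, Pgk1, Pgam1, Ldha, Ldhb and Pdk1 were lower in doxycycline libraries against each of Gapdh, Actb and Ywhaz.

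The steps before aldolase were read for comparison. Of 14 listed genes of glucose uptake and upper glycolysis 11 were tested, and 4 fell and 0 rose (median log2 fold change -0.13). They were the glucose transporter Slc2a1 (-0.33, adjusted p in edgeR 0.000984), the phosphofructokinases Pfkp (-0.31, adjusted p in edgeR 0.00842) and Pfkl (-0.20, adjusted p in edgeR 0.0351), and Pfkfb3 (-0.26, adjusted p in edgeR 0.0422), which makes the activator of phosphofructokinase. Hexokinase 2 (Hk2) was at -0.16 and did not pass (adjusted p in edgeR 0.0626). The other isozymes of the lower steps showed 0 calls among 10 tested of 15 listed. An unadjusted p in edgeR under 0.05 was seen for 3 of them, against 2119 of 13084 genes over all tested. The nearest to the threshold was the neuronal enolase Eno2 (-0.56, SE 0.16, adjusted p in edgeR 0.0827). Of the 6 calls among the 10 genes, 3 remained without untreated replicate 1, without untreated replicate 3 or without doxycycline replicate 3. Among the 4 upper genes, Slc2a1 was called in all 6 fits that left out a library and Pfkp in 4, while Pfkl and Pfkfb3 were called in 1 each, the fit without doxycycline replicate 2.

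**Figure D4:**
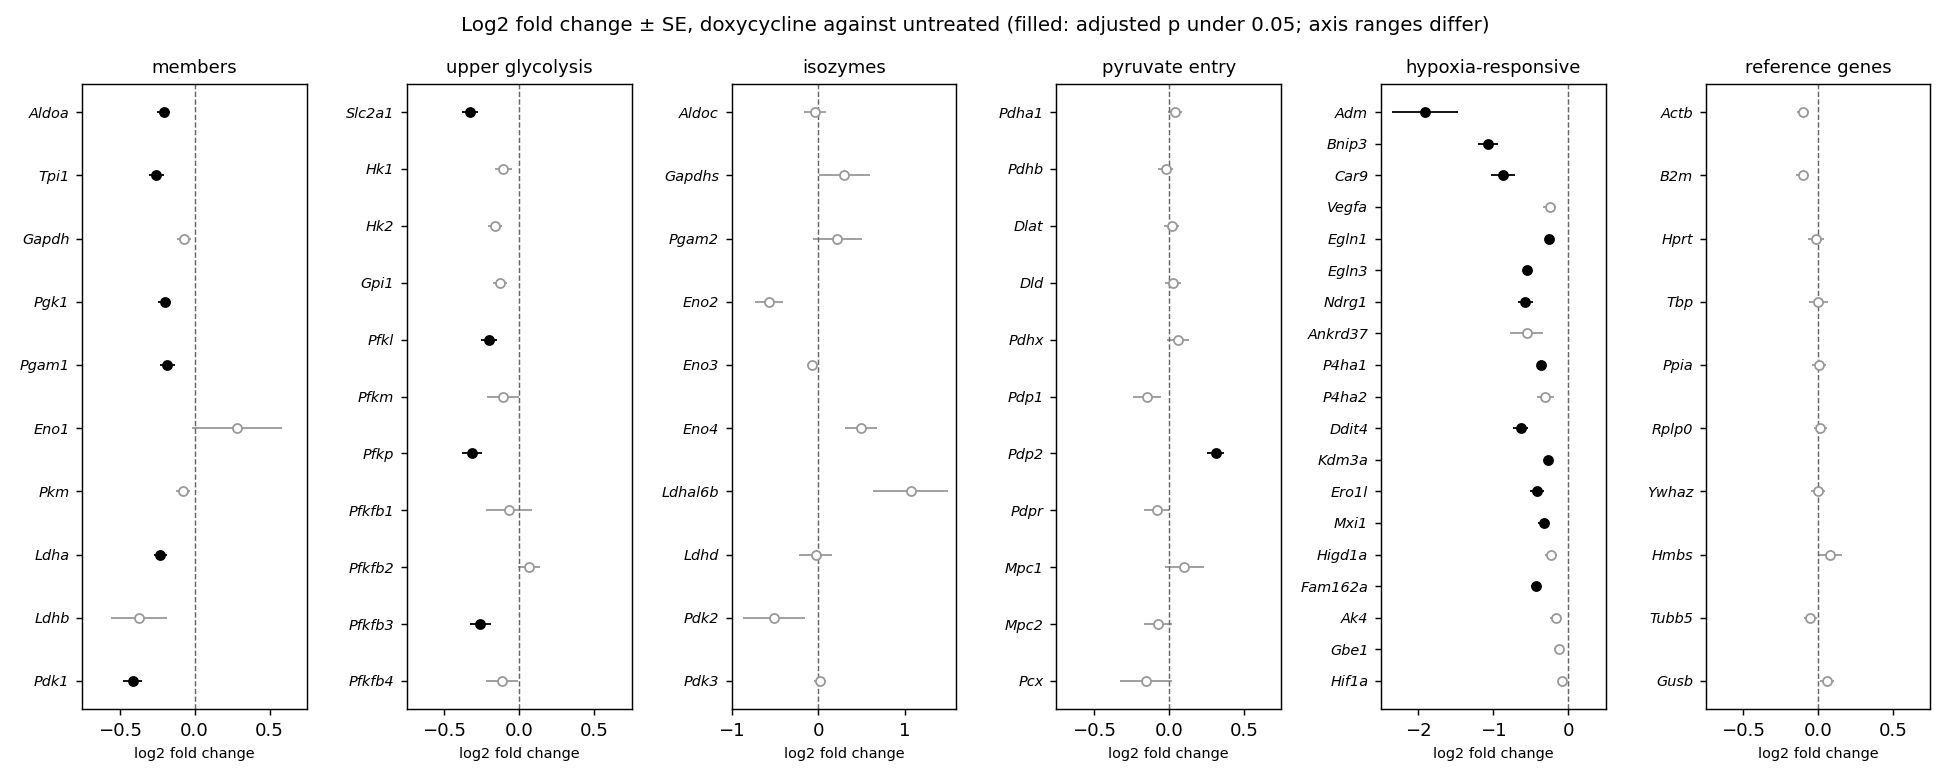
Log2 fold change of doxycycline against untreated libraries for each tested gene of 6 lists, as points with the SE as bars; filled points passed an adjusted p of 0.05, and axis ranges differ between panels. Filled points lie left of 0 for the 10 genes (6), for upper glycolysis (4) and for hypoxia-responsive genes (12), while pyruvate entry holds 1 filled point to the right, Pdp2.

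Beyond the gate, the pyruvate dehydrogenase complex itself showed no call. Pdha1 (0.04), Pdhb (-0.02), Dlat (0.02), Dld (0.03) and Pdhx (0.06) had log2 fold changes with adjusted p-values by edgeR from 0.736 to 0.899. Of the 11 genes of pyruvate entry, Pdp2, a phosphatase that removes the inhibitory phosphate set by the Pdk kinases, was the only call. It rose from 43.9, 46.0 and 44.3 CPM in untreated to 54.3, 53.8 and 58.5 CPM in doxycycline libraries, without overlap (log2 fold change 0.31, SE 0.06, adjusted p in edgeR 0.00349). Pdp2 was called in all 16 alternative fits, with a largest adjusted p of 0.0447. Its counterpart Pdp1, named after its values were seen, was at -0.14 (adjusted p in edgeR 0.475). Among 18 citrate cycle genes edgeR called 0, with 1 at an unadjusted p under 0.05 and log2 fold changes between -0.10 and 0.10. The lactate transporter Slc16a1 was at 0.03 (adjusted p in edgeR 0.832), and its chaperone Bsg at -0.15 (adjusted p in edgeR 0.0875). The transporter Slc16a3 was scarce, with means of 0.554 CPM in untreated and 0.836 CPM in doxycycline libraries. Its groups did not overlap, yet it did not pass (log2 fold change 0.60, SE 0.34, adjusted p in edgeR 0.408). Of 10 reference genes outside glycolysis edgeR called 0, with a median log2 fold change of 0. The 2 at an unadjusted p under 0.05 were Actb and B2m (both -0.10), each lower in every doxycycline library than in every untreated one. For comparison, 2119 of 13084 genes tested were under that p in edgeR.

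Hypoxia-responsive genes outside glycolysis, listed because many of the 10 genes share this annotation, had a log2 fold change below 0 in 19 of 19 cases. Over all genes tested, 6443 of 13084 were below 0 and 283 were called lower. Of the 19 genes, 12 fell and 0 rose, with a median log2 fold change of -0.36. Examples are Bnip3, a mitophagy receptor (-1.07, adjusted p in edgeR 0.00129), Egln3, an oxygen-sensing prolyl hydroxylase (-0.55, adjusted p in edgeR 4.08e-06), and P4ha1, a collagen prolyl hydroxylase (-0.36, adjusted p in edgeR 0.000525). The transcript of Hif1a itself did not pass (-0.08, SE 0.05, adjusted p in edgeR 0.437). This direction was known from earlier results on these libraries when the list was written, and it is not independent evidence.

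**Figure D5:**
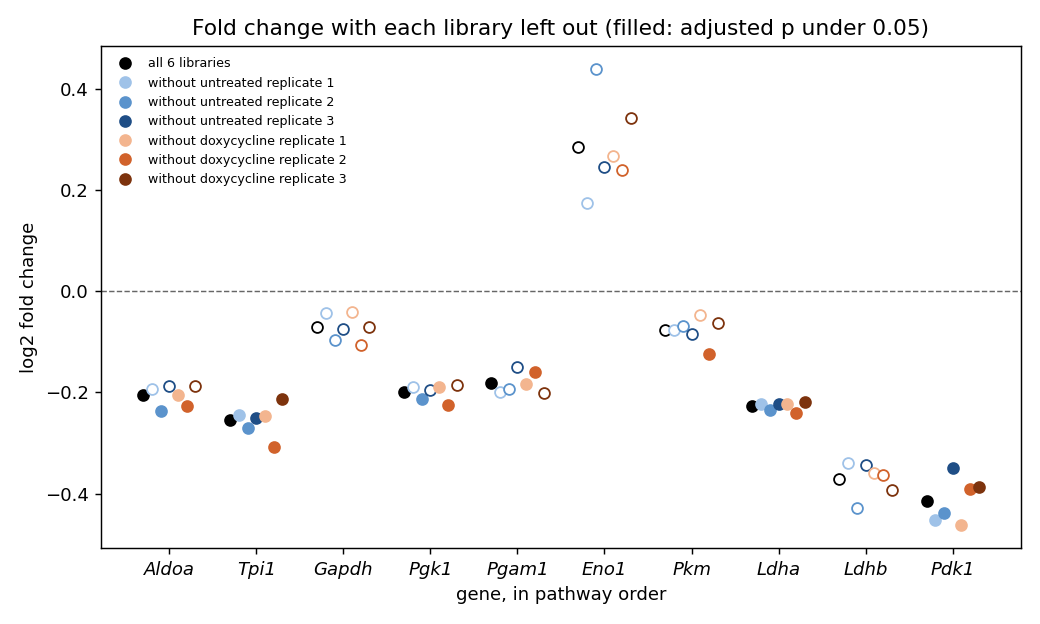
Log2 fold change of the 10 genes in the fit of all 6 libraries (black) and in 6 fits that each leave out a library, with filled points for an adjusted p under 0.05. Pdk1, Ldha and Tpi1 are filled in every fit, and all genes other than Eno1 stay below 0.

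The calls differed in how often they held when a library was left out. Tpi1, Ldha and Pdk1 were called in each of the 6 fits that left out a library, with the largest adjusted p in edgeR at 0.0485, 0.0413 and 0.0106. Aldoa and Pgk1 were called in 3 of the 6 and Pgam1 in 2. Those of Aldoa and Pgk1 were lost without untreated replicate 1 (adjusted p in edgeR 0.0748 and 0.0809), without untreated replicate 3 (0.137 and 0.11) and without doxycycline replicate 3 (0.084 and 0.0796). The call of Pgam1 was lost in the same fits and also without untreated replicate 2 (adjusted p in edgeR 0.101). Over these 6 fits the log2 fold change ran from -0.237 to -0.187 for Aldoa, -0.226 to -0.185 for Pgk1 and -0.202 to -0.15 for Pgam1. Over all genes 141, 151 and 116 were lower without untreated replicates 1, 2 and 3. Without doxycycline replicates 1, 2 and 3 they were 356, 487 and 149, against 283 with all libraries. Why these calls were lost was not tested. Opposite-strand neighbours that overlap Aldoa (Fam57b), Tpi1 (Spsb2) and Gapdh (Iffo1) had at most 0.114, 4.0 and 1.26 CPM.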

How the data were processed

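Total RNA was depleted of ribosomal RNA and sequenced from 3 untreated and 3 doxycycline cultures by means of a kit that keeps strand. Reads were aligned by the authors with STAR to mm10/GRCm38, and the authors deposited raw counts per gene from featureCounts (Subread 1.6.2 and bcl2fastq 2.20 per the submitters' processing notes). The strand setting and the treatment of multi-mapping reads are not given in the sources used here. All columns were matched to a sample by library code, and 0 were left over.

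Counts were tested with the quasi-likelihood test of edgeR 4.0.16 (R 4.3.3, TMM, robust, filterByExpr, group as the only term), which kept 13084 genes, whereas the study normalised with DESeq2. P-values were adjusted over all these genes by the Benjamini-Hochberg method at 0.05. A fold change is doxycycline against untreated, and its SE was obtained from the F statistic (size of the change over the root of F). Centred log2 CPM used a prior count of 2, and ratios over all genes a pseudocount of 0.5. Alternatives used DESeq2 1.42.0 and limma 3.58.1 (voom). Replicate pairs differed by more than sampling noise (chi-square per degree of freedom 6.39 to 23.4). The study calls the libraries biological triplicates without saying how the cultures were separated, so p-values measure the spread between these libraries. At this depth 3 counts equal 0.0688 to 0.0948 CPM, for counting error only.

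On data simulated 5 times from these libraries, recovery was 97% at a change of 1 log2 unit and 85.4% at 0.5, and 7.3% of calls were unchanged genes (12958 to 12987 genes run). Smaller changes, such as those of the genes that fell here, were not simulated, so recovery at their size is not known. The 10 genes and all lists were chosen with earlier results of these data known. Of each list the called genes and the most abundant others could be named. In addition, the 5 genes most like the median profile were named. Of the listed copies, Aldoart1 and Aldoart2 had too few counts to test, and the reference copy Pgk1-rs7 was not analysed here. Coordinates and promoters are from RefSeq, GRCm38.p6, and exon lengths from GENCODE vM21.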

Additional observations from a re-analysis of the deposited data

How the results depend on the processing

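The 10 alternatives that kept all libraries (scaling by DESeq2, by upper quartile or by library size only, no Rn45s, no filter, a minimum of 10 counts per library, replicate block, DESeq2 Wald test, limma voom, and a correction for GC content and length) each called the same number of the 10 genes lower, 6, and 0 higher, and none turned a direction. Of 159 single-gene values over all alternatives, 148 kept their side of the threshold, 10 lost it and 1 gained it. DESeq2 gave no adjusted p for Eno1. With the replicate block, 6 of the 10 genes were lower and Pfkfb3 was no longer called. Correlations of same-numbered libraries (-0.0399, -0.00449 and 0.0176) did not pair them. Leaving out a library gave 3 to 7 of the 10 genes lower (7 without doxycycline replicate 2), 1 to 7 of the upper glycolysis genes lower, 116 to 487 genes lower in all and 44 to 269 higher. It also gave 0 to 1 lower among isozymes, lactate transport genes and copies of members. The difference in the Pdk1 share ran from -7.71 to -5.90 points. Over all genes 439 were lower and 210 higher without a filter, 445 and 436 with the GC content and length correction, and 185 higher with DESeq2. Among isozymes 1 was lower without a filter and 1 with DESeq2. Among lactate transport genes 1 was lower without a filter and 1 with the GC content and length correction. The cause of these shifts was not tested. Eno1 and Ldhb had only 33 to 129 counts a library, with SEs of 0.30 and 0.19.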
